A study of Saccharomyces cerevisiae with 17 samples.

Results

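The transcriptome of a bmh1 deletion strain of Saccharomyces cerevisiae was measured in 1 library and set against 4 libraries of its parent, BY4741, so that 5 of the 17 libraries of the study were compared here. BY4741 is a haploid laboratory strain. The bmh1 deletion strain is labelled as BY4741 without BMH1, and no other allele is given for it. All 5 cultures were grown at 30 °C in synthetic medium holding phosphate at 7.2 mM and KCl at 50 mM, washed, and kept for 60 min in fresh medium with the same 7.2 mM phosphate before they were frozen. Leucine, histidine, methionine and uracil were added to the medium of every group. BY4741 libraries 11, 10 and 13 were placed in the same experiment as the bmh1 deletion, and library B in a second experiment. The labels do not state the experiment of a library. Also used were 2 libraries of an spl2 deletion at 7.2 mM and 3 libraries of BY4741 kept for 60 min without phosphate. Libraries 12, 19 and 20 of the spl2 deletion, kept for 60 min without phosphate, entered the estimate of spread behind the tests. Library A-1, a BY4741 library at 7.2 mM that was placed in experiment 3, was used as a further check. A gene was counted only where its bmh1 deletion value lay outside the range of the 4 BY4741 libraries and the limma adjusted p was under 0.05. The bmh1 deletion was 1 culture, so no value of it has a replicate, and the test assumes that it varied like the other groups.

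BMH1 and BMH2 encode the yeast 14-3-3 proteins, which bind target proteins at phosphorylated serines and threonines and act in signalling by nutrients, stress and the cell cycle. The genes covered most closely here belong to the phosphate (PHO) regulon. Its activator, the transcription factor Pho4, is phosphorylated by the cyclin and kinase pair Pho80 and Pho85 when phosphate is plentiful and leaves the nucleus. When phosphate is short, Pho81 inhibits the kinase, Pho4 stays in the nucleus, and phosphatases, the high-affinity transporter Pho84 and the polyphosphate-making VTC complex are induced. Spl2 is a small protein known for its action on the low-affinity phosphate transporters. The study concerned the control of phosphate genes by 14-3-3 protein and Spl2.

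Values are RPM, reads of a feature scaled to the total of its library. The bmh1 deletion library held 31459058 reads, and the 4 BY4741 libraries held 23237923 to 29929716 reads. A level of 3 reads in the bmh1 deletion library equals 0.0954 RPM, which covers counting error only. The 2114 genes counted were 35.3% of the 5987 tested, with 629 higher (10.5%) and 1485 lower (24.8%). By the range of the 4 BY4741 libraries alone, without the test, 2915 genes (48.7%) lay outside it, 960 above (16.0%) and 1955 below (32.7%).

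The bmh1 deletion library stood apart from BY4741 libraries 11, 10 and 13 by gene length, and so did library B. Among genes of up to 500 bases the median log2 difference from the mean of libraries 11, 10 and 13 was 0.29 for the bmh1 deletion and 0.22 for library B. Among genes over 3000 bases these medians were -0.53 and -0.59. Long genes were thus low and short genes high in both. Calls followed length, with 41.5% of genes of up to 500 bases counted as higher and 0.191% of those over 3000 bases. Ribosomal RNA also stood apart, with the repeated feature RDN37-1 at 894 RPM in the bmh1 deletion, 167 to 203 RPM in libraries 11, 10 and 13, and 401 RPM in library B. With 1 bmh1 deletion library, strain and library cannot be told apart as the source of the length trend. Most changes below are therefore given as measured in RPM and again after the trend on gene length was removed from every library. The latter is called length-centred. Some changes are given in RPM alone. Length-centred, 1459 of 5681 genes were counted (25.7%), 754 higher (13.3%) and 705 lower (12.4%).

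**Figure D1:**
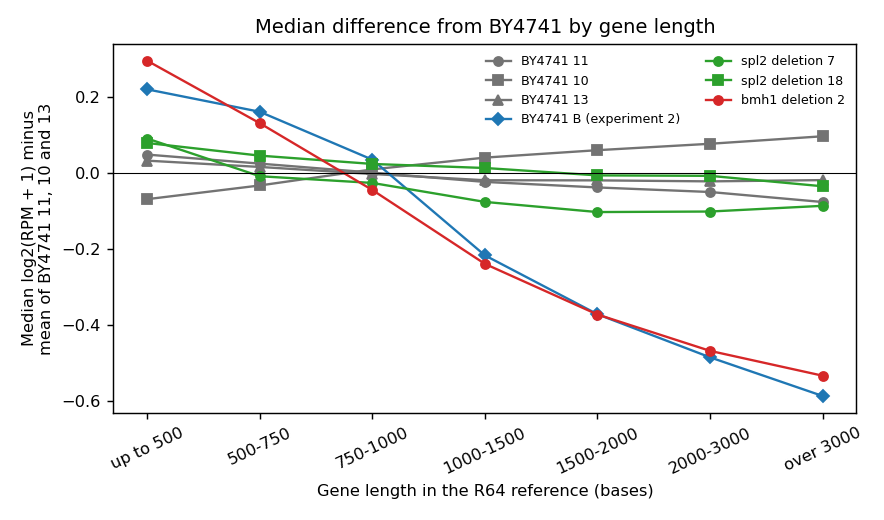
Median log2(RPM + 1) difference from the mean of BY4741 libraries 11, 10 and 13 (vertical axis) for 7 classes of gene length in bases (horizontal axis); each line is 1 library at 7.2 mM phosphate. The bmh1 deletion and library B fall together from above 0.2 in the shortest class to below -0.5 in the longest, while the other libraries drawn, BY4741 11, 10 and 13 and spl2 deletion 7 and 18, stay within 0.2 of 0.

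The median gene was at -0.22 on the log2 scale in RPM, and at 0.01 after scaling by trimmed means (TMM), which turned the split of calls to 1197 higher (20.0%) and 733 lower (12.2%) of 1930 (32.2%). With library B among the BY4741 libraries of the test, 507 genes were counted (8.45%), 143 higher (2.38%) and 364 lower (6.07%). Length-centred as well, these counts were 458 (8.05%), 226 (3.97%) and 232 (4.08%). These 5 settings (RPM, TMM, length-centred, library B in the test, and the last 2 together) all counted the same 231 of 5680 genes, or 4.07%. Of these, 73 were higher (1.29%) and 158 lower (2.78%), and 5 of the higher and 42 of the lower differed at least 2-fold. Below, "in all 5 settings" refers to this count, for which the length-centred settings were chosen after seeing the data. Counts of gene lists below are to be read beside the shares over all tested genes. These shares were 24.8% lower and 10.5% higher in RPM, and 12.4% lower and 13.3% higher length-centred. Because library B enters the range, the count of a list also depends on the level of its genes in that library.

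**Figure D2:**
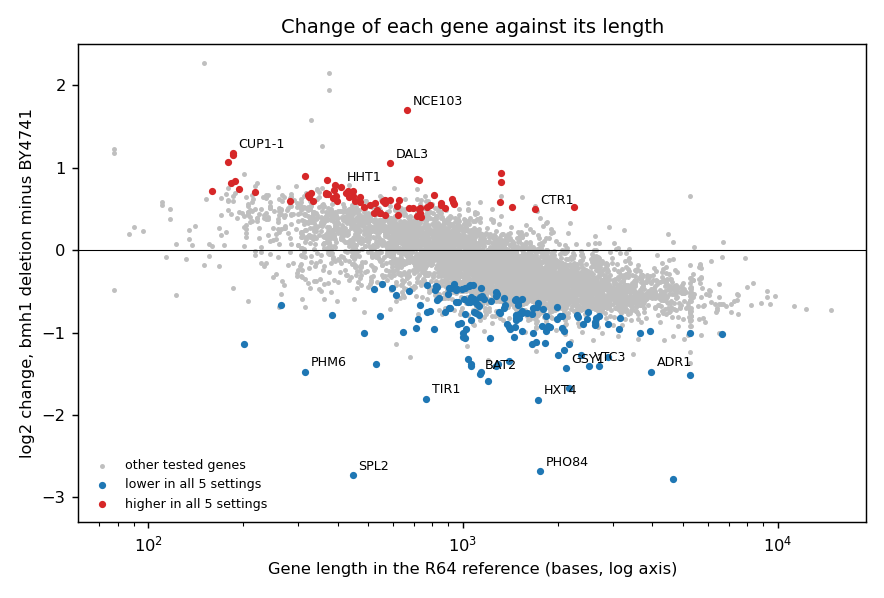
Log2 change of each tested gene in the bmh1 deletion against the mean of BY4741 libraries 11, 10 and 13 (vertical axis) by its gene length in bases (horizontal log axis). Grey points slope downward with length; the coloured genes, counted in all 5 settings, lie at the edges of that band, with SPL2 and PHO84 among the lowest. BMH1, at -8.66, is below the axis.

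The deleted gene followed the label. BMH1 stood at 1.46 RPM (46 reads) in the bmh1 deletion, and at 980, 1051 and 957 RPM in BY4741 libraries 11, 10 and 13 and 1157 RPM in library B. BMH1 lies on chromosome V at 545611 to 546414 of the R64 reference, on the plus strand, and BMH2 on chromosome IV at 653607 to 654428, also on the plus strand. Their coding sequences of 804 and 822 bases are identical at 81.5% of 804 aligned bases. Reads that fall within a shared stretch cannot be told apart by sequence, and the longest such stretch, bases 52 to 87 of both genes, is shown for that reason.
BMH1 and BMH2 shared stretch, chrV:545662-545697, plus strand: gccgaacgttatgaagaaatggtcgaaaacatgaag

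The paralogue BMH2 was not counted. It stood at 233 RPM in the bmh1 deletion against 294, 322 and 298 RPM in libraries 11, 10 and 13. Library B held 222 RPM, so the bmh1 deletion lay inside the BY4741 range, although the log2 change was -0.38 ± 0.070 (SE; limma adjusted p = 0.00025). No rise of BMH2 RNA was thus measured in the strain without BMH1.

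Of the 4 genes beside BMH1 on chromosome V, TMT1 and PDA1 were counted as lower in RPM. TMT1, which encodes a trans-aconitate methyltransferase, stood at 56.9 RPM against 80.6 to 85.1 RPM in the 4 BY4741 libraries, a log2 change of -0.53 that was counted in all 5 settings. PDA1, the next gene downstream and a subunit of pyruvate dehydrogenase, changed by -0.32 in RPM and by -0.07 length-centred, where it was not counted. ECM32 lies just upstream. Its -0.50 in RPM was within the BY4741 range and became 0.00 length-centred. DMC1, the meiotic recombinase, was at -0.16 (limma adjusted p = 0.266).

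Genes of the PHO regulon were low in the bmh1 deletion although phosphate was present. Of 24 members tested, 17 were counted as lower and 1 as higher, with a median log2 change of -0.63 beside -0.22 for all tested genes. Length-centred, 13 were lower and 1 higher, with a median of -0.27. With TMM scaling 12 were lower and 2 higher. SPL2, PHO84, PHM6, VTC3, PHO12, VTC4, VTC2 and CTF19 were counted in all 5 settings. The median of the 24 members was 0.04 in library B, the BY4741 library with the same length trend.

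Pho4 binds the core CACGTG, which reads the same on both strands. Within 600 bases before the coding start it occurs in 20 of the 24 members, and in 7.21% of all 6018 promoters searched. The related core CACGTT, searched on both strands and so also as AACGTG, occurs in 15 of the 24 members and in 18.7% of all promoters; matches of CACGTG and of CACGTT cannot share bases. A match is a description of the letters and not a measured binding site. Windows of 28 bases around CACGTG, in capitals, are shown for the members whose fall was counted in all 5 settings, and for GPP2, DDP1 and GIT1, the members that hold the same core and were not counted. They are from the R64 reference, written along the gene's own strand, with the distance from the first base of the core to the coding start.
SPL2, chrVIII:375445-375472, minus strand, 361 bases: gtatttttgctCACGTGaccgacaaggg
SPL2, chrVIII:375231-375258, minus strand, 147 bases: aatgatgtacgCACGTGggcgaaagttc
SPL2, chrVIII:375174-375201, minus strand, 90 bases: ctctcttttccCACGTGctccgctctct
SPL2, chrVIII:375115-375142, minus strand, 31 bases: gtcactgcagcCACGTGcctagatctat
PHO84, chrXIII:26220-26247, minus strand, 436 bases: tttaatagttcCACGTGgacgtgttatt
PHO84, chrXIII:26198-26225, minus strand, 414 bases: gttatttccagCACGTGgggcggaaatt
PHM6, chrIV:1022584-1022611, minus strand, 279 bases: agcttcgctgaCACGTGggaggtgggat
VTC3, chrXVI:517347-517374, minus strand, 345 bases: gtgcgagggccCACGTGgcttaatacaa
VTC3, chrXVI:517313-517340, minus strand, 311 bases: gcagtcgcaagCACGTGcatgcgatttt
PHO12, chrVIII:551805-551832, plus strand, 283 bases: cttggcgttcaCACGTGggtttaaaaag
VTC4, chrX:413508-413535, minus strand, 125 bases: ttattcatccgCACGTGgctgcacacgt
VTC4, chrX:413496-413523, minus strand, 113 bases: acgtggctgcaCACGTGaatgaaaaaga
VTC2, chrVI:131488-131515, plus strand, 311 bases: aaaaaaaaaccCACGTGctgcttggaaa
GPP2, chrV:280923-280950, minus strand, 257 bases: aacgggcctccCACGTGacgtaaagtag
DDP1, chrXV:642582-642609, plus strand, 148 bases: tctgcggcgagCACGTGcggcttaattc
GIT1, chrIII:299107-299134, minus strand, 518 bases: ttttcgcggcgCACGTGcatgacggtaa
SPL2 holds 4 such cores, the most of the 24. CTF19, a kinetochore gene, is divergent from VTC3 and holds the same 2 cores read from the other strand.

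SPL2 stood at 2.26 RPM in the bmh1 deletion against 20.5, 20.2 and 21.0 RPM in libraries 11, 10 and 13 and 36.1 RPM in library B. All 4 BY4741 libraries were thus well above the bmh1 deletion, and the levels were 9.12-fold apart on the mean of the first 3. The log2 change on the RPM + 1 scale was -2.73 ± 0.117 (SE; limma adjusted p = 3.67e-10), and -2.96 length-centred. SPL2 is a short gene, of 447 bases, in a class that was otherwise shifted upward.

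PHO84, the high-affinity transporter of the plasma membrane, stood at 29.2 RPM against 193, 197 and 189 RPM and 263 RPM in library B. Its level was 6.6-fold below the mean of libraries 11, 10 and 13 and 9.01-fold below library B. The log2 change was -2.68 ± 0.076 (SE; limma adjusted p = 1.02e-12), and -2.30 length-centred. PHO89, the sodium-coupled transporter, was low everywhere at 7.2 mM, with 2.51 RPM against 4.95 to 5.48 RPM in the 4 BY4741 libraries. Its log2 change of -0.80 was counted in RPM and not length-centred (-0.43, limma adjusted p = 0.0779).

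The VTC complex makes polyphosphate at the vacuole. Its subunit gene VTC3 stood at 48.3 RPM against 125, 136 and 130 RPM and 136 RPM in library B, a log2 change of -1.41 ± 0.094 (SE; limma adjusted p = 7.9e-08) and of -0.95 length-centred. VTC4, the catalytic subunit, was at 86.7 RPM against 174 to 203 RPM in the 4 BY4741 libraries, with changes of -1.14 and -0.71. VTC2 changed by -0.84 in RPM and by -0.38 length-centred. The gene of a further subunit, VTC5, is listed as YDR089W and was not counted in RPM or length-centred. VTC1 moved the other way with length: its change was -0.36 in RPM and -0.62 length-centred, and it was not counted with TMM scaling (-0.12, limma adjusted p = 0.47).

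Secreted acid phosphatases release phosphate outside the cell. PHO12 stood at 25 RPM against 62.2, 69.5 and 63.1 RPM and 111 RPM in library B, a log2 change of -1.34 ± 0.143 (SE; limma adjusted p = 4.28e-06) and of -1.05 length-centred. PHO11, nearly identical to PHO12, was at 20.3 RPM against 28.5 to 44.2 RPM, and how reads were assigned between them is not given, so their separate values are uncertain. PHO5, the main repressible acid phosphatase, was at 23.5 RPM against 31.0 to 35.2 RPM. Its change of -0.51 was counted in RPM but was -0.21 length-centred (limma adjusted p = 0.307), and it lay inside the range once the BY4741 library of experiment 3 was added.

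PHM6, a small phosphate-responsive gene, stood at 4.42 RPM against 16.6, 11.3 and 14.7 RPM and 20.3 RPM in library B, with log2 changes of -1.47 in RPM and -1.80 length-centred. PHO81, the inhibitor of the Pho85 kinase, was at 27.1 RPM against 43.1 to 47.0 RPM, with changes of -0.74 and -0.22. PHO8, the vacuolar alkaline phosphatase, changed by -0.60 and -0.24, and PHO86, needed for Pho84 to leave the endoplasmic reticulum, by -0.38 and -0.30. CTF19 changed by -0.66 and -0.47.

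Other members, among them genes that act on inositol phosphates or on glycerophospholipids, gave mixed values. VIP1, an inositol pyrophosphate kinase, changed by -0.68 in RPM and by -0.17 length-centred, both counted. GDE1, a glycerophosphocholine phosphodiesterase, was at 20.3 RPM with 20.8 RPM in library B, and its -0.65 became -0.13 length-centred, not counted. The kinase gene KCS1 was inside the range, at 56.4 RPM with 48.0 RPM in library B. DDP1, GPP2, GIT1, PHM7 and YDR089W (VTC5) were not counted in RPM or length-centred. PHM8, which encodes a phosphatase of lysophosphatidic acid and nucleotides, was the member counted as higher, at 44.5 RPM against 32.4 to 40.5 RPM, with changes of 0.37 and 0.48.

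**Figure D3:**
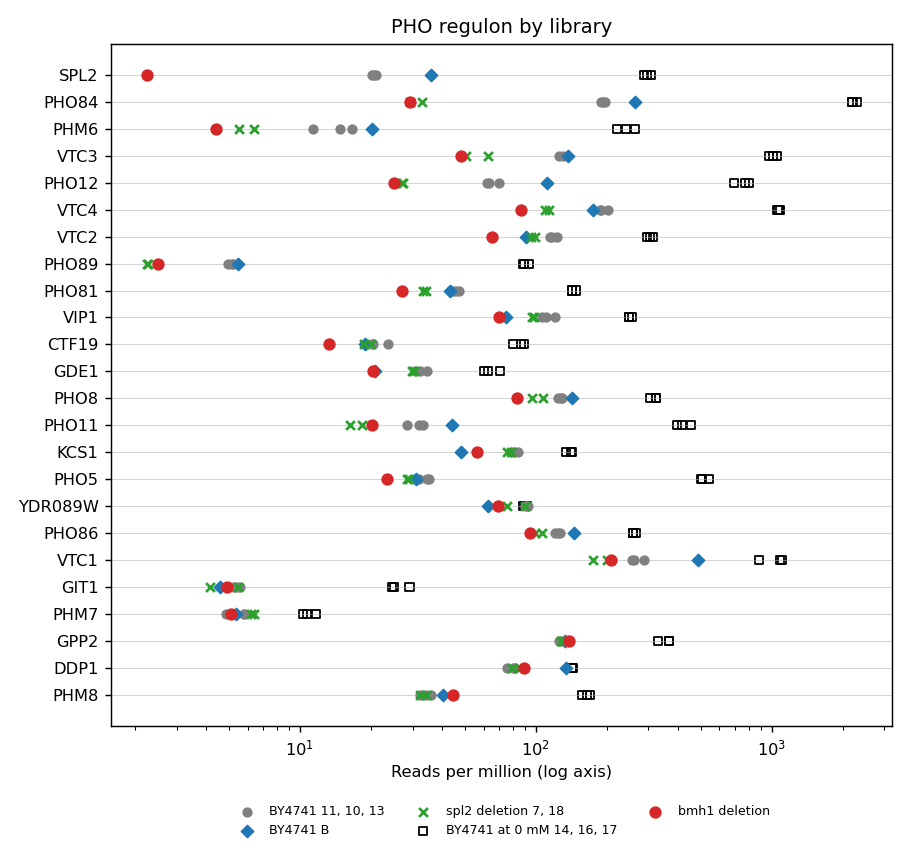
RPM on a log axis (horizontal) of the 24 tested members of the PHO regulon (rows, ordered by log2 change); each point is 1 library. The bmh1 deletion is left of all 4 BY4741 libraries at 7.2 mM in the upper rows and close to the spl2 deletion for PHO84, while BY4741 at 0 mM is to the right of the other libraries in nearly every row; SPL2 in the spl2 deletion is at 0 and is not drawn.

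Low-affinity transporters carry most phosphate uptake when it is plentiful. PHO87 stood at 39.6 RPM against 58.9, 68.6 and 62.6 RPM and 45.3 RPM in library B, with changes of -0.66 in RPM and -0.18 length-centred. PHO90, at 58.5 RPM, was above library B (55.8 RPM) and was not counted. The vacuolar exporter gene PHO91 changed by -0.48 in RPM and by -0.01 length-centred, where its call was lost. Among 9 genes of PHO signalling, PHO81 alone was counted; PHO4 itself was at 37.3 RPM against 57.1 to 68.9 RPM in libraries 11, 10 and 13, but library B held 37.2 RPM.

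The spl2 deletion at 7.2 mM offers values of a strain from the same experiment without SPL2. PHO84 stood at 29.4 and 33.1 RPM in spl2 deletion libraries 7 and 18, beside 29.2 RPM in the bmh1 deletion. The difference, bmh1 deletion minus spl2 deletion, was -0.09 ± 0.080 on the log2 scale (SE; limma adjusted p = 0.359) and 0.24 length-centred (limma adjusted p = 0.0244), so whether PHO84 differed between the strains depended on the scaling. VTC3 was at 50.4 and 62.5 RPM, PHO12 at 27.3 and 27.1 RPM, and PHM6 at 5.52 and 6.37 RPM in the spl2 deletion, and none of these 3 passed the test of the difference in RPM. Length-centred, PHM6 was lower in the bmh1 deletion (-0.58, limma adjusted p = 0.00904). VTC4 and VTC2 were at 109 to 114 RPM and 95.5 to 98.8 RPM, above the bmh1 deletion by tests in RPM (log2 -0.36 and -0.56). Both calls were lost length-centred, at 0.02 (limma adjusted p = 0.826) and -0.16 (limma adjusted p = 0.0568). For comparison, BY4741 kept for 60 min without phosphate held 2200, 2183 and 2297 RPM of PHO84 and 295, 287 and 308 RPM of SPL2, so the basal levels that were low in the bmh1 deletion are themselves a small part of the induced ones.

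Against the spl2 deletion as a whole, 3280 of 5967 genes passed (55.0%), 681 higher (11.4%) and 2599 lower (43.6%), and length-centred 1728 of 5660 (30.5%), 850 higher and 878 lower. The spl2 deletion libraries had a weaker trend of the same direction, with medians from 0.090 and 0.078 for genes of up to 500 bases to -0.087 and -0.036 for those over 3000 bases in libraries 7 and 18. Of the PHO regulon 1 gene was higher and 8 lower in the bmh1 deletion than in the spl2 deletion in RPM, and 3 were higher and 2 lower length-centred. The 5 lowest genes of this comparison with a mean of at least 10 RPM were BMH1, YGR109W-B, HXT4, GSY1 and GPH1, and the 5 highest were RMI1, HHT1, QDR1, HSP12 and NCE103. QDR1, a multidrug transporter gene and one of the 5 highest, stood at 21.7 RPM against 10.1 and 13.2 RPM in the spl2 deletion. The Ty3 element YGR109W-B was at 1.56 RPM against 96.7 and 99.7 RPM in the spl2 deletion and 14.5 to 19.5 RPM in libraries 11, 10 and 13. Library B held 3.41 RPM, copies of Ty elements share sequence, and its call against BY4741 was lost when the library of experiment 3 was added to the range, so its value is uncertain.

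Genes of glucose uptake and storage carbohydrate were among the lowest. HXT4, a glucose transporter of high affinity, stood at 13.4 RPM against 47.8, 51.4 and 49.5 RPM and 45.8 RPM in library B. No BY4741 library came near the bmh1 deletion, and the level was 3.71-fold lower. The log2 change was -1.82 ± 0.095 (SE; limma adjusted p = 5.64e-09), and -1.44 length-centred. Of 16 hexose transporter and sensor genes, 10 were counted as lower in RPM (median -0.49) and 5 lower and 1 higher length-centred (median -0.12). HXT4, the sensor gene SNF3, MTH1 and the hexokinase gene HXK2 were counted in all 5 settings. HXK2 stood at 568 RPM against 740 to 1185 RPM, with changes of -0.94 and -0.63. HXT6 changed by -1.22 in RPM, but its BY4741 values ran from 4.68 to 11.7 RPM and the length-centred call was lost (limma adjusted p = 0.0581).

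Of 18 genes of trehalose and glycogen, 16 were counted as lower and 0 as higher in RPM, with a median of -0.72. Length-centred, 11 were lower and 2 higher, with a median of -0.31. GSY1, a glycogen synthase, stood at 9.19 RPM against 24.3, 31.3 and 24.3 RPM and 29.0 RPM in library B (changes -1.43 and -1.0). GPH1, glycogen phosphorylase, stood at 12.6 RPM against 32.0 to 41.1 RPM (changes -1.41 and -0.93). Genes for both making and breaking down glycogen were thus low. TSL1, a subunit of the trehalose synthase complex, and PGM2, phosphoglucomutase, changed by -1.01 and -0.95 in RPM and by -0.42 and -0.58 length-centred.

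Of 21 glycolytic genes tested, 8 were lower and 2 higher in RPM, and 6 lower and 4 higher length-centred. TDH1, a glyceraldehyde-3-phosphate dehydrogenase, stood at 44.7 RPM against 80.2 to 108 RPM in the 4 BY4741 libraries (changes -1.0 and -0.88). HXK1, a hexokinase, was at 70.7 RPM against 134 to 178 RPM (changes -1.06 and -0.75). PDC5, a pyruvate decarboxylase, changed by -0.84 in RPM and by -0.47 length-centred. ENO1, enolase, was higher at 373 RPM against 226 to 263 RPM (changes 0.58 and 0.85), but lay inside the range once the BY4741 library of experiment 3 was added.

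Adr1 is a transcription factor of glucose-repressed genes and a known target of 14-3-3 protein. ADR1 RNA stood at 8.07 RPM against 21.6, 27.3 and 24 RPM and 15.1 RPM in library B. The log2 change was -1.47 ± 0.138 (SE; limma adjusted p = 1.68e-06), and -0.95 length-centred. Of 26 glucose-repressed Adr1 and Cat8 targets, 4 were lower and 1 higher in RPM and 2 lower and 4 higher length-centred. CRC1, a carnitine carrier of mitochondria, and ATO3, an ammonium exporter, were the members counted as lower in all 5 settings (-0.88 and -0.60 in RPM, -0.76 and -0.59 length-centred). Of 29 kinases and regulators linked to 14-3-3 proteins, 9 were lower and 0 higher in RPM, 4 lower and 2 higher length-centred, and ADR1 alone was counted in all 5 settings. The lower counts of these 29 genes were near the shares over all tested genes, 24.8% in RPM and 12.4% length-centred. Those of the 26 targets were below these shares. The 1 regulator counted in all 5 settings stands beside 4.07% of all genes. BCY1, the regulatory subunit of protein kinase A, changed by -0.58 and -0.33, and SNF1, the kinase of glucose derepression, by -0.61 and -0.21. YAK1, a kinase of the glucose response, changed by -0.64 in RPM but was not counted length-centred (-0.18).

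**Figure D4:**
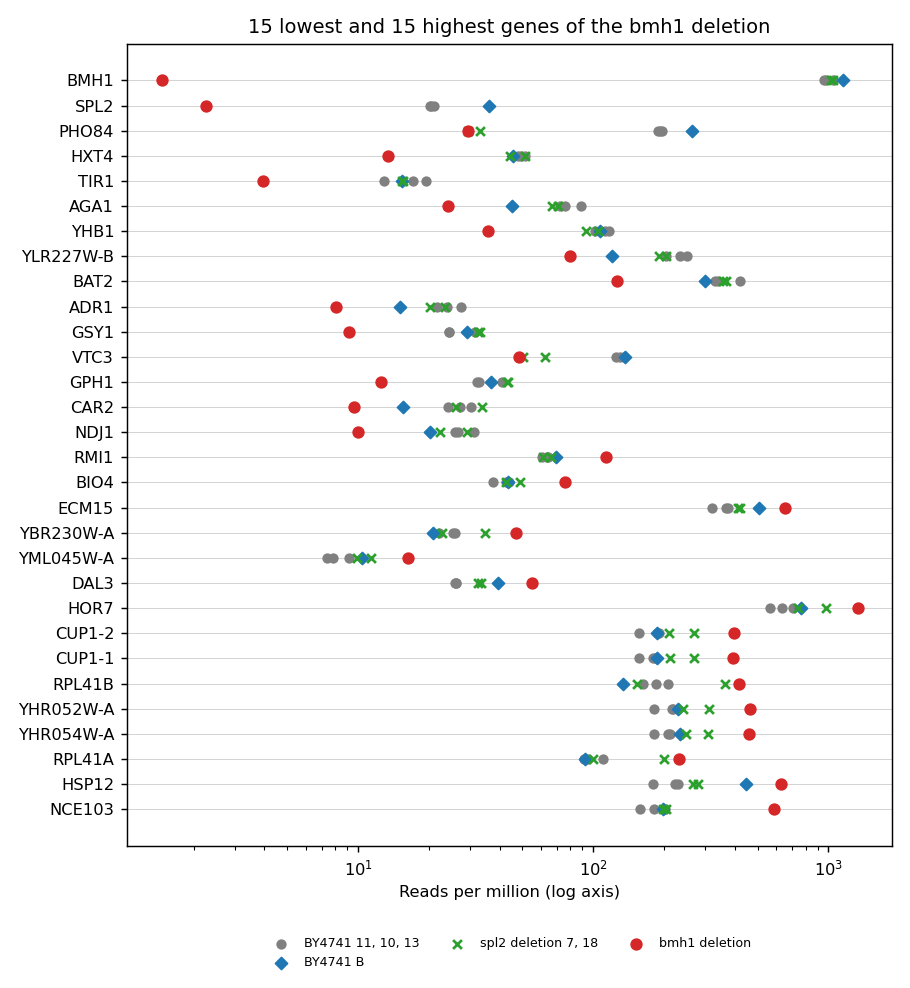
RPM on a log axis (horizontal) of the 15 lowest and 15 highest genes counted in the bmh1 deletion with a mean of at least 10 RPM (rows); each point is 1 library. The bmh1 deletion lies outside the 4 BY4741 libraries in every row, which the choice of genes fixes; the spl2 deletion lies with BY4741 for HXT4 and NCE103 and near the bmh1 deletion for PHO84 and VTC3, and its SPL2 value of 0 is not drawn.

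Of 45 general stress genes, 27 were lower and 2 higher in RPM (median -0.41), and 21 lower and 4 higher length-centred (median -0.23). DDR48 stood at 56.5 RPM against 144, 163 and 141 RPM and 106 RPM in library B (changes -1.38 and -1.12). HSP26, a small heat shock protein gene named after its value was seen, was at 16.2 RPM against 31.2 to 38.9 RPM (changes -1.0 and -1.11). HSP12, a membrane-associated heat shock protein gene, went the other way, at 626 RPM against 222, 229 and 179 RPM and 447 RPM in library B. Its changes were 1.58 ± 0.143 (SE; limma adjusted p = 1.2e-06) and 1.27, and the call was lost length-centred with library B in the test (1.04, limma adjusted p = 0.06). HOR7, a gene of the response to high osmolarity, stood at 1332 RPM against 567 to 762 RPM (changes 1.07 and 0.64). The BY4741 library of experiment 3 held 1366 RPM of HOR7, above the bmh1 deletion.

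Of 24 genes of oxidative stress, 12 were lower and 1 higher in RPM and 9 lower and 1 higher length-centred. OYE2, an NADPH oxidoreductase gene, stood at 322 RPM against 702 to 865 RPM, but the spl2 deletion libraries held 1393 and 746 RPM, a wide spread within 1 strain, and the call was lost with DESeq2 (adjusted p = 0.085). TRX1, thioredoxin, was higher at 674 RPM against 396 to 604 RPM (changes 0.65 and 0.33). YHB1, a flavohaemoglobin that removes nitric oxide, stood at 35.8 RPM against 101, 117 and 112 RPM and 107 RPM in library B. Its changes were -1.59 ± 0.140 (SE; limma adjusted p = 1.01e-06) and -1.36.

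Among the 15 highest changes the largest was that of NCE103, carbonic anhydrase. It stood at 585 RPM in the bmh1 deletion against 159, 202 and 182 RPM and 198 RPM in library B, and at 198 and 203 RPM in the spl2 deletion. The other libraries thus lay close together and the bmh1 deletion was 3.24-fold above the mean of libraries 11, 10 and 13. The log2 change was 1.70 ± 0.125 (SE; limma adjusted p = 2.19e-07), and 1.60 length-centred.

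BAT2, the cytosolic branched-chain aminotransferase, stood at 126 RPM against 329, 420 and 338 RPM and 299 RPM in library B. Its changes were -1.50 ± 0.127 (SE; limma adjusted p = 7.77e-07) and -1.31. CAR1, arginase, was at 72.8 RPM against 104 to 161 RPM (changes -1.06 and -0.93). CAR2, which acts after it on ornithine, was at 9.63 RPM against 15.5 to 30.3 RPM (changes -1.40 and -1.14). DAL3, an enzyme of allantoin breakdown, rose to 55.0 RPM against 25.7, 26.1 and 26.1 RPM and 39.2 RPM in library B (changes 1.05 and 0.91). Of 28 genes under nitrogen catabolite repression, 6 were lower and 3 higher in RPM, and length-centred 4 of 27 were lower and 8 higher, so the balance of the list turned with the scaling. The counts in RPM are close to the shares over all tested genes, 24.8% lower and 10.5% higher.

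Of 40 amino acid genes under Gcn4, 18 were lower and 0 higher in RPM and 12 of 39 lower length-centred. ASN1, asparagine synthetase, stood at 750 RPM against 1592 to 1709 RPM in libraries 11, 10 and 13, but 864 RPM in library B (changes -1.12 and -0.75). GLN1, glutamine synthetase, belongs to the list of nitrogen catabolite repression and not to this one. It was likewise at 960 RPM against 1505 to 1692 RPM and 1047 RPM in library B. Library B was thus much closer to the bmh1 deletion for both genes, and neither was counted when it entered the test in RPM. The median of the Gcn4 list in library B was -0.59, beside -0.54 in the bmh1 deletion.

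BY4741 is of mating type a. Of 20 genes of that mating type and the pheromone response, 14 were lower and 3 higher in RPM (median -0.64), and 10 lower and 1 higher length-centred (median -0.25). AGA1, the anchor subunit of the mating agglutinin, stood at 24 RPM against 72.0, 88.9 and 75.7 RPM and 45.0 RPM in library B. Its changes were -1.67 ± 0.100 (SE; limma adjusted p = 2.33e-08) and -1.23. SST2, which damps pheromone signalling, changed by -0.98 and -0.55, and FUS3, a kinase of the pheromone pathway, by -0.85 and -0.69. FIG2, a mating adhesin, stood at 22.8 RPM with 24.7 RPM in library B (changes -0.82 and -0.27), and its call was lost with library B in the test.

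Of 35 genes of cell wall integrity, 21 were lower and 0 higher in RPM (median -0.45), and 13 lower and 2 higher length-centred (median -0.25). TIR1, a cell wall mannoprotein, stood at 3.94 RPM against 19.4, 17.2 and 12.9 RPM and 15.3 RPM in library B (changes -1.80 and -1.84). Its relative TIR3 was at 5.94 RPM against 9.22 to 13.6 RPM (changes -0.96 and -0.96). SED1, an abundant wall glycoprotein, was at 489 RPM against 775 to 1177 RPM (changes -1.07 and -0.93). GSC2, a glucan synthase subunit encoded by a gene of 5688 bases, changed by -1.03 in RPM and by -0.46 length-centred.

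Of 21 iron uptake genes, 16 were lower and 0 higher in RPM and 8 lower and 1 higher length-centred. ENB1, the enterobactin transporter, stood at 35.3 RPM against 78.8, 79.9 and 76.3 RPM and 94.4 RPM in library B (changes -1.13 and -0.74). The ferric reductase gene FRE1 changed by -0.94 and -0.52, and the siderophore transporter genes SIT1 and ARN1 by -1.03 and -0.71 in RPM and by -0.47 and -0.31 length-centred.

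Of 7 copper genes tested, 4 were higher and 0 lower in RPM (median 0.50), and 3 of 6 higher length-centred (median 0.48). CTR1, the copper transporter of the plasma membrane, stood at 66.6 RPM against 48.7, 45.4 and 46.6 RPM and 55.8 RPM in library B (changes 0.50 and 0.86). The metallothionein copies CUP1-1 and CUP1-2 stood at 391 and 396 RPM against 156 to 190 RPM in the 4 BY4741 libraries (changes 1.17 and 1.15 in RPM, 0.75 and 0.73 length-centred). They are copies of a repeat, so they count as 1 signal whose number of copies in each strain was not tested. The BY4741 library of experiment 3 held 17.4 RPM of CUP1-1, 18.6 RPM of CUP1-2 and 13.3 RPM of CTR1. By fold, that library was further from libraries 11, 10 and 13 than the bmh1 deletion was, for CTR1 and both CUP1 copies. CRS5, another metallothionein, was at 6.87 RPM against 4.15 to 4.94 RPM, and its call was lost with library B in the test (limma adjusted p = 0.0565).

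Ribosomal protein genes, which are short and abundant, were high in part. Their lengths, with a median of 771 bases, are gene spans that include any introns, and length-centring used these spans. Of 137, 57 were higher and 9 lower in RPM (median 0.28), and 51 higher and 6 lower length-centred (median 0.27). Library B had a median of 0.27 for the same genes, and 9 of the 137 were counted in all 5 settings. RPL41A and RPL41B, near-identical genes of 78 bases, stood at 231 and 418 RPM against 91.1 to 110 RPM and 133 to 208 RPM. The spl2 deletion libraries held 201 and 100 RPM of RPL41A, a wide spread within 1 strain, and both calls were lost when the BY4741 library of experiment 3 was added to the range. RPS30B and RPL29 changed by 0.76 and 0.75 in RPM; RPL29 was not counted length-centred (0.32, limma adjusted p = 0.0887).

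Of 10 core histone genes, 6 were higher and 0 lower in RPM (median 0.28), and 2 higher and 1 lower length-centred (median -0.02). HHT1, a histone H3 gene, stood at 3036 RPM against 1905, 1616 and 1838 RPM and 1648 RPM in library B (changes 0.77 and 0.52). HTA2, a histone H2A gene, was at 1667 RPM against 986 to 1194 RPM (changes 0.60 and 0.34). HTA1 and HHF1 changed by 0.35 and 0.52 in RPM and were not counted length-centred. Of 19 cyclins and regulators of G1 and mitosis, 9 were lower and 1 higher in RPM and 5 lower and 3 higher length-centred. CDC20, an activator of the anaphase-promoting complex, stood at 14.6 RPM against 22.1 to 31.4 RPM (changes -0.98 and -0.59). The mitotic regulators SWI5 and CDC5 were close to library B, with 38.9 and 41.5 RPM, and 44.6 and 45.6 RPM in the bmh1 deletion and library B, and their calls were lost with library B in the test in RPM.

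**Figure D5:**
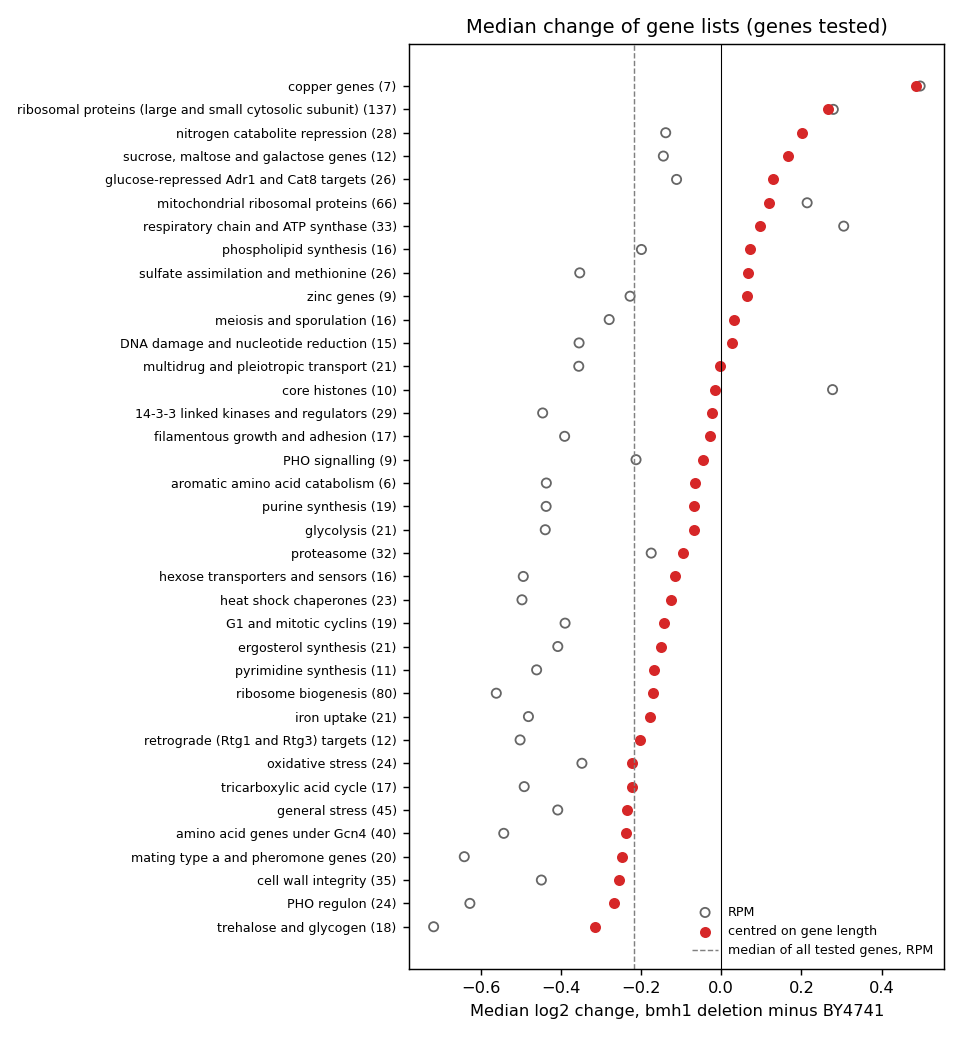
Median log2 change of the genes tested in each list with at least 6 tested members (rows, number tested in brackets), in RPM (open circles) and length-centred (filled circles); the dashed line is the median of all tested genes in RPM. Trehalose and glycogen genes and the PHO regulon have the lowest length-centred medians, -0.31 and -0.27, and copper genes the highest, 0.48.

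Further genes of the 15 highest and 15 lowest changes fall outside these groups. RMI1, a partner of DNA topoisomerase III, stood at 114 RPM against 60.5 to 69.6 RPM (changes 0.85 and 0.79). BIO4, an enzyme of biotin synthesis, was at 75.8 RPM against 37.6 to 43.7 RPM (changes 0.86 and 0.80), and ECM15 at 657 RPM against 320 to 507 RPM (changes 0.90 and 0.57). NDJ1, a meiotic telomere gene, was at 10.0 RPM against 20.3 to 31.1 RPM (changes -1.38 and -1.22). The small gene YBR230W-A changed by 0.93 and 0.51. The Ty element genes YLR227W-B and YML045W-A changed by -1.51 and 0.93 in RPM, and share sequence with other copies, so both values are uncertain. YHR052W-A and YHR054W-A, which lie within the CUP1 repeat, stood at 466 and 461 RPM against 181 to 235 RPM, but reads there may belong to overlapping CUP1 transcripts. The BY4741 library of experiment 3 held 0.313 RPM of YHR054W-A. In all, 92 features with at least 10 RPM in libraries 11, 10 and 13 were under 1 RPM in that library, and 25 of them were among the 2114 counted. That is a lower share than the 35.3% counted among all tested genes. Of the 92, 48 had no match to a coding gene and 86 reached 10 RPM in library B.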

How the data were processed

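RNA was purified with a yeast kit and made into stranded libraries from mRNA, sequenced on a HiSeq instrument, per the labels' protocols. The deposited table gives RPM for 7125 features in 17 libraries (aligner, counter, genome build, strand use in counting: not given in the sources used here). At a tolerance of 0.001 reads 100% of values were whole multiples of 1 read, so reads were recovered. Groups come from the labels, which do not state the experiment of a library. Library A-1 was placed in experiment 3 from the lettering of its title and the series' description. Library B was placed in the second experiment because the series' description gives that experiment 1 BY4741 and 2 rrp6 deletion cultures, which are lettered B, C and D. Features were linked to the R64 reference by name (6211 of 7125), since the table holds no coordinates. Lengths are gene spans from the first to the last base of the gene, so introns are included. Of the coding genes' lengths, 96.3% are multiples of 3. A gene with an intron was thus given a length above that of its coding sequence.

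log2(RPM + 1), a scale that understates changes of low genes, was tested with limma 3.58.1 under R 4.3.3 (trend on mean level) over the 12 libraries of experiment 1 with a mean per group (7 residual degrees of freedom) and Benjamini-Hochberg adjustment over all tested genes. Features with at least 1 RPM in 2 of the compared libraries were tested. Library B entered the range only. The design had named this test for normalized values. Length-centring subtracted from each library's log2 values a lowess curve (span 0.3) of the difference from the mean of libraries 11, 10 and 13 on log2 length. Tests on recovered reads used edgeR 4.0.16 and DESeq2 1.42.0. Libraries 11, 10 and 13 differed beyond sampling noise in each pair, with a mean chi-square of 3.91 to 27.5 per gene. P-values measure the spread between cultures, which the series' description calls independent, within the other groups of experiment 1. They do not cover the spread between bmh1 deletion cultures, of which there was 1, or between experiments. The procedure was tested on simulated data that held no trend on gene length and no difference between experiments. That test therefore cannot speak to false calls from either.

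The members, the 41 gene lists and the tests were chosen with earlier results of these data known. Named genes were BMH1, BMH2, genes beside BMH1, SPL2, PHO84, PHO5, PHO89, PHO87 and PHO90, the 15 highest and 15 lowest counted changes with a mean of at least 10 RPM, and, per list, the 4 or fewer members with the largest counted changes; against the spl2 deletion also the 5 highest and 5 lowest. All PHO regulon members are reported, but not every other gene that the rule names. Members beyond the rule (also PHO4, MTH1, ENO1 and HSP26) were chosen after their values were seen. Ribosomal DNA and mitochondrial features were left out of the named genes. A line of the table was not analysed here.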

Additional observations from a re-analysis of the deposited data

How the results depend on the processing

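The 2114 genes counted became 507 with library B among the BY4741 libraries of the test (143 higher, 364 lower), 580 with a minimum of 1.5-fold (131 higher, 449 lower), 3832 with the range of libraries 11, 10 and 13 or with no range rule (2924 lower), and 458 length-centred with library B in the test (226 higher, 232 lower). With TMM scaling 1197 were higher and 733 lower, with DESeq2 789 were lower, and length-centred 705 were lower. Against the spl2 deletion 1633 were higher and 1424 lower with TMM scaling, and 1728 differed (878 lower) length-centred. The length-centred settings were chosen after seeing the data. Leaving out each library of experiment 1 in turn gave 1957 to 2161 genes against BY4741. No paired analysis was possible because the libraries compared share no replicate numbers. Of 2822 values of 105 genes under the alternatives, 2681 kept their direction and call, 108 lost the call, 15 gained it and 18 reversed. These 105 are genes given in the text, and none of those that reversed had been counted. Counted genes outside the 105 did reverse. ESBP6 and EKI1, counted as lower in RPM (-0.27 and -0.34), were at 0.15 and 0.0025 length-centred and not counted there. Length-centred, alone and then with library B in the test, ECM32 was at 0.0046 and 0.027, YDR089W at 0.071 and 0.077, GIT1 at 0.22 and 0.18 and PHM7 at 0.40 and 0.27; KCS1 was at 0.033 in the second. DDP1 was at -0.014 with library B in the test and at -0.13 also length-centred. With TMM scaling and DESeq2, DMC1 was at 0.044 and 0.042 (0.021 length-centred), GIT1 at 0.080 and 0.093, and PHM7 at 0.11 and 0.12. The cause was not tested. Each gene named with values rests on at least 46 reads in the bmh1 deletion library, and none has a second culture of that strain.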

Other observations

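Lists of energy metabolism and protein quality gave further counts. Of 33 genes of the respiratory chain and ATP synthase, 17 were higher and 2 lower in RPM (median 0.31), and 9 higher and 2 lower length-centred (median 0.10); library B had a median of 0.22. Of 66 mitochondrial ribosomal protein genes, 21 were higher and 2 lower in RPM and 15 higher and 3 lower length-centred. Their median in RPM was 0.21, beside 0.23 in library B, and 1 of the 66 was counted in all 5 settings. Of 17 genes of the tricarboxylic acid cycle, 10 were lower in RPM and 7 lower and 1 higher length-centred, and 0 were counted in all 5 settings. Of 23 heat shock chaperone genes, 11 were lower and 1 higher in RPM and 3 lower and 1 higher length-centred. These 3 are near the 12.4% of all genes that were lower length-centred. Of 32 proteasome genes, 13 were lower and 1 higher in RPM and 6 lower and 1 higher length-centred. With library B in the test, 0 of the 32 were counted.

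Of 80 ribosome biogenesis genes, 3 were lower and 1 higher in RPM at a median of -0.56, beside -0.72 in library B. Of 21 ergosterol genes, 13 were lower in RPM and 6 lower and 1 higher length-centred. Of 26 genes of sulfate assimilation and methionine, 8 were lower and 2 higher in RPM and 4 lower and 5 higher length-centred.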
